A study of Homo sapiens with 6 samples.

Results

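The regions described here are clusters of nuclease-protected RNA recovered with the F125A form of Rbfox1 at places where the wild-type (WT) list held no cluster. They were chosen by a comparison of both lists. F125A clusters that named 1 gene were kept, repeated rows were dropped, and a cluster stayed in if it shared no nt with any WT cluster on its chromosome and strand. Of 184975 such F125A clusters, 27229 (14.7%; exact 95% interval 14.6% to 14.9%) met the rule, and the remaining 157746 are called partnered below. They lay in the introns of 7613 protein-coding genes, out of 10660 genes with an F125A cluster. Both lists together held 554456 clusters, 366429 of them WT and 188027 of them F125A. Because overlap with WT chose these clusters, their share of the list is a description and not a test.

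Every library was made from the knockout line Rbfox2 KO#7. It derives from HEK293 Flp-In, an established line of human embryonic kidney origin that carries a single docking site for transgenes. The WT list stands for 3 libraries from cells with FLAG-tagged Rbfox1(WT) and the F125A list for 2 libraries from cells with FLAG-tagged Rbfox1(F125A). A library from the same knockout line with no transgene was not analysed here, so RNA recovered without a tagged protein was not set against the clusters. All groups share the one knockout line, so differences between independent knockout lines were not sampled. Each group has 1 list with no value per library and no read count, so the spread between libraries, the depth and a p-value for any difference could not be had. The intervals printed here are exact (Clopper-Pearson) intervals that cover counting error and treat clusters as independent, although neighbouring clusters share transcripts.

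Rbfox proteins are splicing regulators whose single RNA recognition motif reads a GCATG-type pentamer (with U in RNA) in introns beside regulated exons. The phenylalanine changed in F125A lies in that motif and contacts the RNA, and its replacement by alanine is known to weaken this recognition. In nuclei Rbfox proteins sit in LASR, a large assembly of splicing regulators that includes hnRNP M, which binds GU-rich RNA, hnRNP H, which binds runs of G, hnRNP C, which binds runs of U, and matrin 3. RNA bound anywhere by the assembly can be protected from nuclease, so a cluster need not mark a contact of Rbfox itself. Introns of protein-coding genes also carry microRNA hairpins and small nucleolar RNAs (snoRNAs), which are cut out of the host transcript.

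The microRNA hairpins are shown first because their sequences let the covered stretch be read against known mature RNAs. Each line gives a hairpin in RefSeq's GRCh38.p14 sequence, 5′ to 3′, with the bases covered by an unpartnered F125A cluster in capitals. The MIR330 hairpin at chr19:45638994-45639087 (minus strand) lies in EML2. MIR582 lies in PDE4D at chr5:59703606-59703703 (minus strand), MIR140 in WWP2 at chr16:69933081-69933180 (plus strand) and MIR326 in ARRB1 at chr11:75335092-75335186 (minus strand). MIR590 lies in EIF4H at chr7:74191198-74191294 (plus strand) and is shown on separate lines for each of its 2 clusters.
MIR330: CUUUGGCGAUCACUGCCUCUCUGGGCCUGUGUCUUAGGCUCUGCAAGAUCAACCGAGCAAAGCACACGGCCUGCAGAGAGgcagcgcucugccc
MIR582: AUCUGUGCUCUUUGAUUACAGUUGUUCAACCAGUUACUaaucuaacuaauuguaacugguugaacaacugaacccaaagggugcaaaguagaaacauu
MIR140: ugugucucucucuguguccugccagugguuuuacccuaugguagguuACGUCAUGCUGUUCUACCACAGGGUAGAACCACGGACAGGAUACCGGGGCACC
MIR326: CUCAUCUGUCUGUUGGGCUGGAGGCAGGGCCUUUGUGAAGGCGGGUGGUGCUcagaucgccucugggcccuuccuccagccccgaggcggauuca
MIR590, cluster on the 5′ arm: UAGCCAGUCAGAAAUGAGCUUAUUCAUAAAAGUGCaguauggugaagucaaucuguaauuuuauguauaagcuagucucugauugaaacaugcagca
MIR590, cluster on the 3′ arm: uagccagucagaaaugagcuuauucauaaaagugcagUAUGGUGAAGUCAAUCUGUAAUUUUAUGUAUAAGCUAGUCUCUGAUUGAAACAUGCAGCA
The covered stretch of MIR330 ran through both of its mature sequences, and in MIR582 and MIR140 it held the mature sequence of 1 arm. For MIR326 the cluster ended before the listed mature sequence. The mature sequences of MIR330 and MIR326 that share a seed (bases 2 to 8, in capitals) follow.
miR-330-5p: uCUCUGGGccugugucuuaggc
miR-326: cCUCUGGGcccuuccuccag

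The next set shows clusters inside RefSeq promoter windows, which with the hairpins were the stretches whose bases were used. A window runs from 250 bases before to 50 bases after an annotated gene start. Clusters far from the start of their own gene were picked after their sequences were seen, to show what the motif counts further below refer to. The first pair are unpartnered F125A clusters with the Rbfox pentamer in capitals, from SRPK1 (chr6:35857227-35857291, minus strand), which encodes a kinase of SR proteins, and BCL9 (chr1:147611455-147611580, plus strand), a cofactor of Wnt signalling.
SRPK1: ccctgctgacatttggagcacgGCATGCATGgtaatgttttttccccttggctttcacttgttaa
BCL9: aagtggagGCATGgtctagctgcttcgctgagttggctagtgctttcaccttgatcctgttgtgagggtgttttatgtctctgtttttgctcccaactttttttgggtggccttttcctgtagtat
Unpartnered F125A clusters with a run of at least 4 G in capitals are shown from CUL4B (chrX:120559903-120559971, minus strand), TOX2 (chr20:43945793-43945829, plus strand) and LRRC37B (chr17:32020942-32020990, plus strand).
CUL4B: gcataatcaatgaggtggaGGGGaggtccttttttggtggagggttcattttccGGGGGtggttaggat
TOX2: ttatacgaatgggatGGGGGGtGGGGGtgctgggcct
LRRC37B: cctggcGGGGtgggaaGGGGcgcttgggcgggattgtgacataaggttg
For contrast, the last set are WT clusters with no F125A partner and the pentamer in capitals, from CERS6 (chr2:168482193-168482269, plus strand), TTLL11 (chr9:122083270-122083328, minus strand) and MTCL1 (chr18:8707783-8707839, plus strand).
CERS6: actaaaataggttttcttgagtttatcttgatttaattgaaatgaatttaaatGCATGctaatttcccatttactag
TTLL11: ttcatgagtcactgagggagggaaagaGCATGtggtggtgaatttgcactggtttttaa
MTCL1: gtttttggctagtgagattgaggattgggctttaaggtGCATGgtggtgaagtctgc

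Most unpartnered F125A clusters lay within 1000 nt of a WT cluster. How far other intronic places lie from WT was not measured, so the gaps do not show a special closeness. The gap to the nearest WT cluster on the same strand had a median of 410 nt and an upper quartile of 1158 nt. Of the 27229 clusters, 293 (1.08%) touched a WT cluster end to end, 13.9% lay within 50 nt of one, 54.9% within 500 nt and 71.7% within 1000 nt. Only 674 (2.48%) were more than 10000 nt from any WT cluster, and 1 had none on its chromosome and strand. At the edge of the rule, 987 partnered clusters shared 1 to 10 nt with WT and 1480 unpartnered clusters lay 0 to 10 nt away. Their median lengths were 62 and 64 nt, and 12.5% and 14.1% exceeded 100 nt. One step further from the edge, the 305 partnered clusters that shared 11 to 20 nt had a median of 74 nt (20.7% above 100 nt), and the 659 unpartnered ones 11 to 20 nt away had 68 nt (13.5%). Partnered clusters as a whole were not edge cases, since WT clusters covered a median of 97.3% of their length and left 4715 of them less than 50% covered. A WT cluster on the opposite strand overlapped 0 of the 27229 clusters. It also overlapped 0 of the 157746 partnered ones, so this was no trait of the unpartnered set. The exact interval of the unpartnered share reaches 0.0136%, and 3 counts, the limit that a count of 0 allows, come to 0.011%. Within 500 nt of an opposite-strand WT cluster lay only 9 unpartnered and 10 partnered clusters. How the lists treated places with genes on both strands is not given, and its part in the count of 0 was not tested.

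Clusters without a partner were longer than those with one. Their median length was 68 nt (quartiles 52 and 90 nt), against 63 nt for partnered F125A clusters, 60 nt for all WT clusters of 1 gene and 57 nt for WT clusters without an F125A partner. Clusters above 100 nt made up 17.1% of the unpartnered set and 10.4% of the partnered one. The difference in medians had the same direction on all 23 chromosomes other than Y. Per the labels' protocols, inserts of 20 to 80 nt were selected. The share without a partner was 12.1% among F125A clusters of 40 to 59 nt, 20.2% at 100 to 119 nt and 29.4% at 150 to 199 nt, and it was also higher (15.7%) among those under 40 nt. The difference was smaller once neighbours were joined. When clusters closer than 50 nt were merged in both lists, 18.8% of unpartnered and 18.3% of partnered clusters exceeded 100 nt, with medians of 69 and 66 nt.

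**Figure D1:**
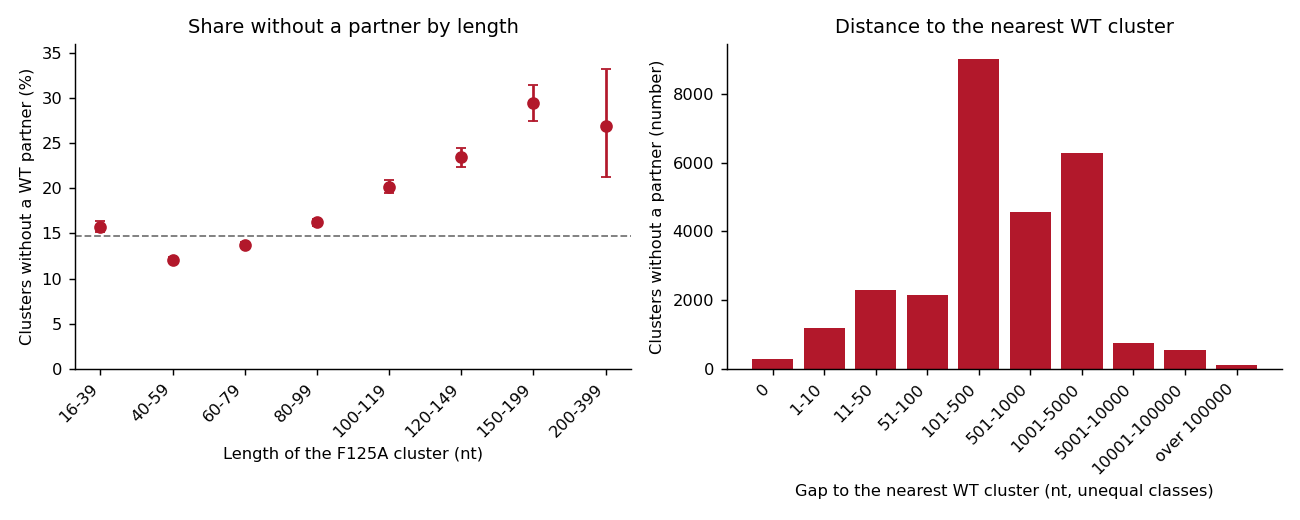
Left, share of F125A clusters without a WT partner (%) by cluster length (nt), with exact 95% intervals and the share over all clusters (14.7%) as a dashed line. Right, number of unpartnered clusters by the gap to the nearest WT cluster on the same strand (nt); the classes are of unequal width. The share was lowest (12.1%) at 40 to 59 nt and highest (29.4%) at 150 to 199 nt, and the class of 101 to 500 nt held most clusters (9014).

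The 10 longest unpartnered clusters ran from 242 to 305 nt. The longest lay in ZZZ3, a subunit of a histone acetyltransferase complex, at chr1:77633371-77633675, with the nearest WT cluster 1328 nt away. EP400 and INO80, both chromatin remodellers, followed with 299 and 282 nt. RPTOR, the scaffold of mTOR complex 1, had one of 265 nt, SIRT1, a deacetylase, one of 254 nt and ANGEL1 one of 249 nt. DICER1, the nuclease that releases microRNAs from their hairpins, had one of 246 nt that lay 1985 nt from WT. SMC3, a ring subunit of cohesin, and CELSR1, an adhesion receptor, each had one of 244 nt, and IGF2BP2, an mRNA-binding protein, one of 242 nt. These 10 clusters lay between 76 and 2323 nt from WT, so none of them was among the most isolated.

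Very short clusters were commoner among the most isolated ones. Among the 674 more than 10 kb from any WT cluster, 18.7% were under 40 nt, against 8.38% of the other unpartnered clusters. Their medians were 62.5 and 68 nt, and that of partnered F125A clusters was 63 nt, so most isolated clusters were of usual length. Within the same gene, the farthest lay in AGBL4, a tubulin deglutamylase, 591079 nt from the nearest WT cluster of that gene. The next was a cluster of 22 nt at chr3:7615532-7615553 in GRM7, a metabotropic glutamate receptor, at 539971 nt. GRIN2B, an NMDA receptor subunit, had one at 296783 nt and PTPRT, a receptor phosphatase, at 286241 and 174071 nt. TENM2, CPNE4, DPYD and GPC5 had one each, between 179769 and 252588 nt. These clusters were 22 to 89 nt long, and the genes were 445 kb or longer.

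Toward the 3′ end of genes the share without a partner was higher. It was 10.8% (6706 of 62302) more than 100 kb from the annotated gene end, 15.5% at 10 to 100 kb, 19.4% at 5 to 10 kb, 23.7% at 2 to 5 kb and 29.4% at 1 to 2 kb. Nearer still it did not follow the distance in order, with 29.2% at 500 to 1000 nt, 46.9% at 250 to 500 nt (130 clusters, interval 38.1% to 55.9%) and 39.7% in the last 250 nt (68 clusters, interval 28.0% to 52.3%). As a share of the set, 9.11% of unpartnered clusters lay within 5 kb of the gene end, against 4.60% of partnered and 3.82% of WT clusters. In each class of gene length the unpartnered share was above both others. Below 30 kb it was 33.0%, against 24.9% of partnered and 23.7% of WT clusters. Between 30 and 100 kb it was 6.09% against 3.66% and 3.71%, and beyond 100 kb it was 1.46% against 0.536% and 0.565%, so in the longer genes partnered clusters were not above WT. Over all genes, WT clusters per F125A cluster fell from 2.19 beyond 100 kb to 0.956 in the last 250 nt. At 10 to 100 kb and 2 to 5 kb this ratio was 1.92 and 1.48. Within each length class that step was smaller. The longest genes (over 100 kb) had 2.19 and 2.06, with shares without a partner of 14.4% and 24.7%. The middle class had 1.82 and 1.65 (15.7% and 23.5%), and the shortest 1.51 and 1.35 (18.4% and 23.7%). At 1 to 2 kb the longest, middle and shortest classes had 1.47, 1.73 and 1.14. The part of this ratio in the result was not tested.

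At the gene start the picture was narrower. Within the first 250 nt, 24.3% of 1233 F125A clusters had no partner (interval 21.96% to 26.83%), and beyond that the share was 16.6% at 250 to 500 nt and 12.9% past 100 kb. Over all genes, 4.31% of unpartnered and 3.32% of partnered clusters lay within 1 kb of the start. Within classes of gene length the difference shrank. The shares were 12.6% and 12.6% in genes under 30 kb, where the unpartnered value was the lower by a hair (ratio 0.996), 3.73% and 3.52% from 30 to 100 kb, and 1.30% and 1.10% above 100 kb. The share without a partner itself fell with gene length, from 20.7% under 30 kb to 16.3% and 12.3% in the longer classes.

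**Figure D2:**
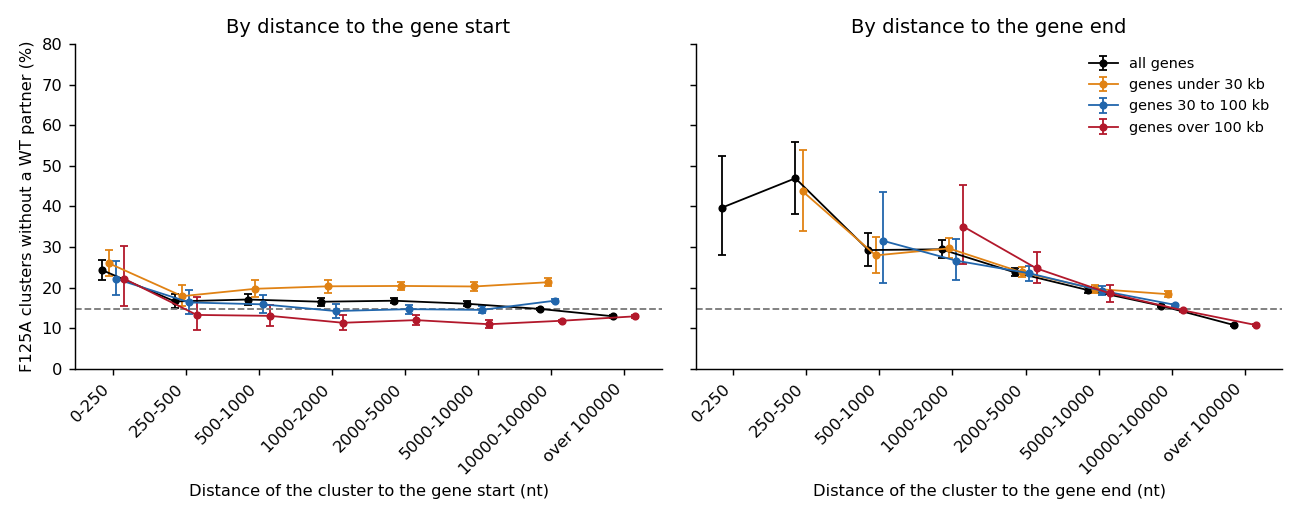
Share of F125A clusters without a WT partner (%) by distance of the cluster to the annotated start (left) and end (right) of its gene in nt, for all genes and 3 classes of gene length, with exact 95% intervals. The dashed line is the share over all clusters (14.7%), and classes with under 50 clusters are not drawn. Over all genes the share rose from 10.8% far from the gene end to between 29.2% and 46.9% in the last 2000 nt, and at the start it was raised within the first 250 nt (24.3%).

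Where a gene held few WT clusters, its F125A clusters more often lacked a partner. In the fifth of genes with fewest WT clusters per kb (median 0.0563 per kb) the share was 26.8%, and in the fifth with most (median 1.09 per kb) it was 12.6%. Because the rule itself uses WT clusters this is a description, and every share per gene below should be read beside the gene's number of WT clusters.

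Unpartnered clusters were spread thinly over genes. Of the 7613 genes, 2599 had 1, and 491 genes with at least 10 held 7147. The largest numbers mostly fell in genes with very many clusters of both kinds. IMMP2L, a mitochondrial inner membrane peptidase, had 51 of 367, FHIT, a hydrolase at a common fragile site, 49 of 341, TTC28 43 of 495 and ERBB4, a receptor tyrosine kinase, 42 of 414. RAD51B, of homologous recombination, had 40 of 307, FRMPD4, a synaptic scaffold, 36 of 260, and ERC1, a cortical scaffold, 34 of 398. Their shares of 8.54% to 14.4% were at or below the 14.7% of all clusters.

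3 of the 10 genes with most unpartnered clusters stood above that level. GK, the glycerol kinase gene on the X chromosome, had 51 of 144 (35.4%, interval 27.6% to 43.8%), and its 113 WT clusters were fewer than its F125A clusters. ZNF711, an X-linked zinc finger factor, had 34 of 131 (26.0%, interval 18.7% to 34.3%), with 100 WT clusters. PRKDC, the catalytic subunit of DNA-dependent protein kinase, had 34 of 182 (18.7%, interval 13.3% to 25.1%) with 267 WT clusters. These genes were picked for their numbers of unpartnered clusters, so the intervals do not test a difference from all clusters. In GK, 44 of the 51 lay more than 50 nt from WT. This was much as in the whole unpartnered set, where 13.9% lay within 50 nt.

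A share of 50% or more was reached by 38 of the 4623 genes with at least 10 F125A clusters (0.822%). The median gene had 14.3% (quartiles 8.93% and 20.7%), and 268 genes had none. Of the 38 genes, 12 were under 30 kb and 7 over 100 kb, and the largest number of F125A clusters among them was 26, so their intervals are wide. With at least 20 F125A clusters required, 2 of 2673 genes reached 50%. These were WNK2, a kinase of ion transport, with 14 of 26, and ASNS, asparagine synthetase, with 13 of 25, both named because the count is so small. The same genes are drawn against their number of F125A clusters in the plot of shares by gene.

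The highest share belonged to NCL, which encodes nucleolin, a nucleolar protein of ribosome assembly. In this gene at chr2:231453531-231464484, 12 of 17 F125A clusters had no partner (70.6%, interval 44.0% to 89.7%), and WT had 7 clusters. The 12 were 38 to 143 nt long, and the nearest touched a WT cluster. Of them, 10 lay more than 50 nt from WT, while 13.9% of all unpartnered clusters lay within 50 nt. HNRNPA1, a splicing repressor outside the LASR list used here, had 7 of 10 (interval 34.8% to 93.3%) spread over its 6.36 kb, beside 7 WT clusters. GK5, a relative of glycerol kinase, also had 7 of 10, beside 10 WT clusters. PLEKHG4B, a guanine nucleotide exchange factor, had 13 of 19, beside 13 WT clusters. EIF4G2, a translation initiation factor, had 8 of 12, BAIAP2, which links membranes to actin, 11 of 18, and USP40, a deubiquitinase, 9 of 15. GAS6, a ligand of TAM receptors, MIPEP, a mitochondrial peptidase, and RNPEP, an aminopeptidase, each had 6 of 10. Their WT clusters numbered 15, 21 and 12. All of these genes were picked as the highest shares, so the intervals do not test a difference from all clusters.

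Where F125A clusters were many, some genes had almost none without a partner. Among genes with at least 100 F125A clusters, SKI, a corepressor of TGF-beta signalling, had 3 of 100 (3.00%, interval 0.623% to 8.52%) beside 190 WT clusters. PBX3, a homeodomain factor, had 6 of 172 and ZNF536 4 of 112. MECOM, a zinc finger factor of blood stem cells, had 12 of 321, TBC1D5 4 of 103, DNAH14 13 of 286, AUTS2 29 of 631, WWOX 14 of 299 and ADK, adenosine kinase, 11 of 227. These genes lay between 3.00% and 4.85%, and the upper bound of each interval was below 14.7%. They were picked as the lowest shares, so the intervals do not test a difference from all clusters.

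**Figure D3:**
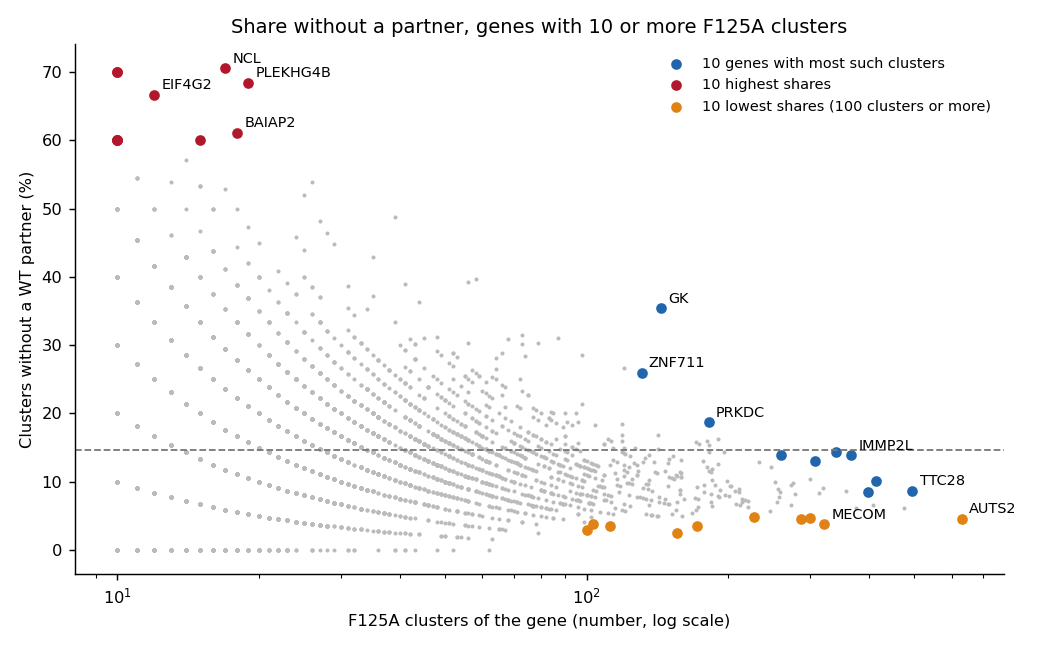
Each point is a gene with at least 10 F125A clusters, by its number of F125A clusters (log axis) and the share of them without a WT partner (%). The dashed line is the share over all clusters (14.7%). Genes with the highest shares, such as NCL (70.6%), had under 20 F125A clusters, while GK (35.4%) and ZNF711 (26.0%) stood above the line with over 100.

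Genes with F125A clusters and no WT cluster of their own were rare and thinly covered. Of the 10660 genes with an F125A cluster, 254 were named by no WT cluster of 1 gene. These genes held 297 of the 184975 F125A clusters, and 220 of the genes had 1. In an alternative added after seeing the data, WT rows that list several genes also counted and left 251. However, all clusters of several genes, 3052 in each list, stood in a stretch of rows that was the same in both lists. This alternative rests on those rows alone. The 3 genes dropped, CORO7-PAM16, PTGES3L-AARSD1 and SENP3-EIF4A1, are readthrough genes with 1 F125A cluster each. PRXL2C, a peroxiredoxin-like gene, had most, with 4. C8orf82, DCXR, a xylulose reductase, GPS2, a corepressor subunit, NRGN, a neuronal calmodulin-binding protein, PAF1, of transcription elongation, SPATA2L and SSR4, of the translocon, had 3 each. AAMP and ADAMTS16 were among those with 2. Of these 10 genes, 9 were 15.7 kb or shorter, and ADAMTS16 was 180 kb. With so few clusters a gene, no absence from the WT list can be told from too little coverage.

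Some unpartnered clusters followed each other in unbroken runs. Counting consecutive F125A clusters of a gene that all lacked a partner, 18181 (66.8%) stood alone and 2838 (10.4%) were in runs of at least 3. The longest runs held 12. In FOCAD, a focal adhesion gene that also acts in RNA decay, 12 clusters of 61 to 147 nt covered 51.2% of chr9:20973017-20975167. No WT cluster lay in these 2151 nt, and the nearest were 359 nt before and 4158 nt after. PPP6R2, a regulator of protein phosphatase 6, had 12 in chr22:50343506-50347843, where WT had none over 4338 nt and a first one 341 nt after. NF1, a Ras GTPase activator, and PTPRN2, a secretory granule phosphatase, had runs of 9, and CASZ1, a zinc finger factor, one of 8. WT clusters can still lie between the clusters of a run, as 3 did in PTPRN2.

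The BAIAP2 run was the most compact of the runs of 7. Its 7 clusters, each 65 to 73 nt, covered 98.4% of chr17:81078146-81078636, a span of 491 nt. WT clusters stood 20 nt before and 8 nt after it. DNAAF5, a factor of dynein arm assembly, had 6 clusters over 99.4% of 510 nt at chr7:735031-735540, with WT 10 nt before and 70 nt after. CDH4, a cadherin, had 6 over 86.9% of 582 nt, with WT 3040 nt before and 5386 nt after. The BAIAP2 and DNAAF5 runs thus filled a gap between WT clusters, whereas the FOCAD and CDH4 runs were well apart from WT on at least one side. Of the genes with runs, FOCAD, PPP6R2, NF1, PTPRN2, CASZ1, DNAAF5 and CDH4 are named outside the rule for named genes and were picked for their runs after the values were seen.

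**Figure D4:**
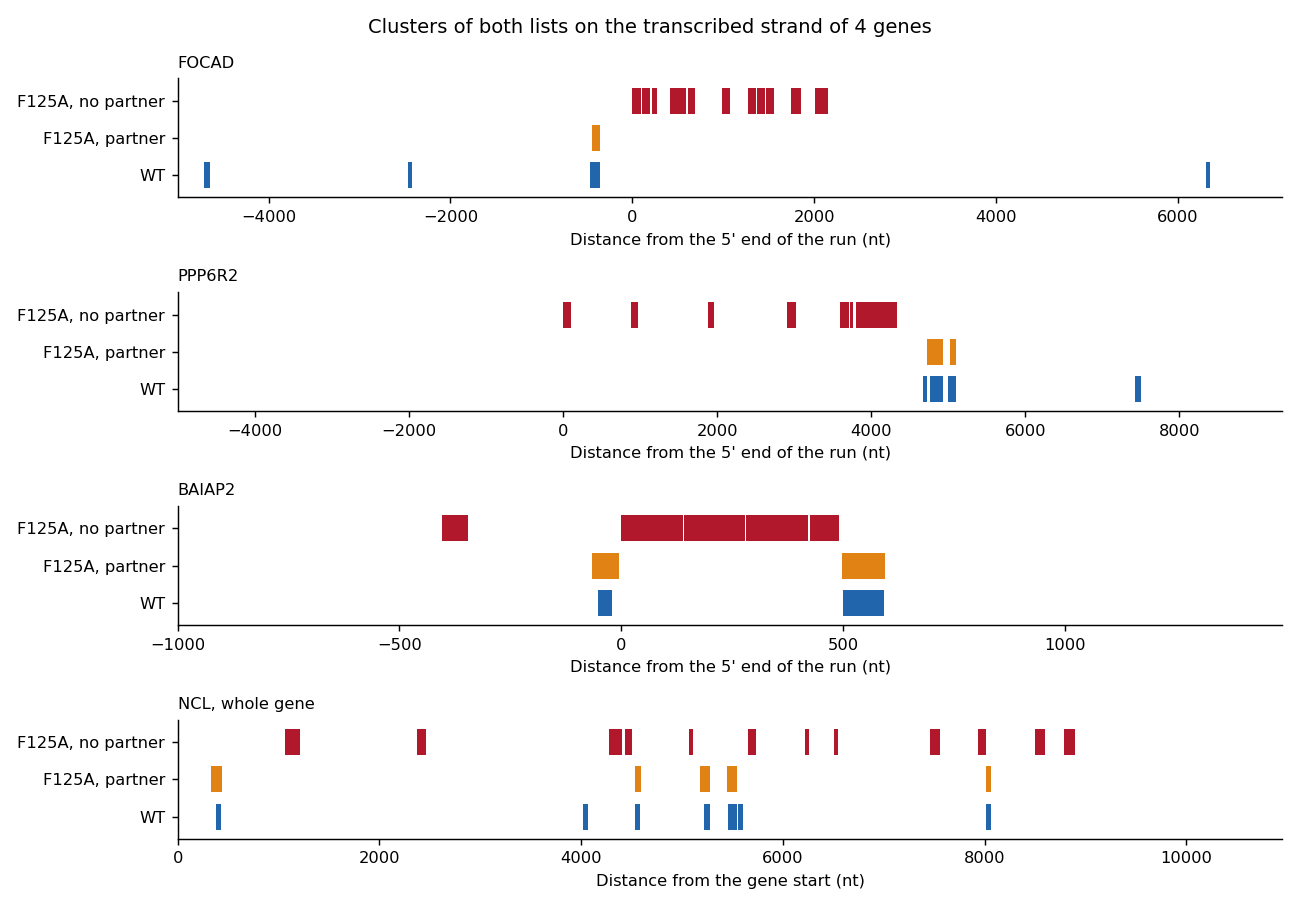
Clusters of the WT list, of partnered F125A and of unpartnered F125A on the transcribed strand of FOCAD, PPP6R2, BAIAP2 and the whole of NCL, by distance in nt from the 5′ end of the run or, for NCL, from the gene start. Box widths are to scale. The 12 FOCAD clusters stand over 2151 nt with no WT cluster, the 7 BAIAP2 clusters lie between WT clusters, and the 12 NCL clusters lie between 1066 and 8900 nt while the 7 of WT lie between 377 and 8060 nt.

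Runs were the exception, however. Another F125A cluster, partnered or not, lay within 100 nt of 19.4% of unpartnered and 27.1% of partnered clusters, and the median distance to the next F125A cluster was 674 and 446 nt. The ratio of the shares, 0.715, was below 1 in each class of gene length, from 0.657 to 0.711.

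Among the gene lists, chaperone and ribosomal protein genes had the highest shares without a partner. The lists were chosen with earlier results of these data known, and each is set beside the share of all clusters (14.7%) and that of all clusters in genes of the same length class. Over all 4623 genes with at least 10 F125A clusters, 2191 (47.4%) were above 14.7%, and the counts of such genes in a list are read beside that. Chaperone genes had 65 of 217 without a partner (29.95%, interval 23.9% to 36.5%, 20.5% for the length class), and all 11 genes with at least 10 F125A clusters were above 14.7%. Among them, HSPA9, the mitochondrial Hsp70, had 10 of 36, TCP1 and CCT7 of the cytosolic chaperonin 6 of 14 and 6 of 16, and CCT4 6 of 24. Cytosolic ribosomal protein genes had 163 of 587 (27.8%, interval 24.2% to 31.6%, 20.7% for the length class), and 15 of 19 such genes were above. RPL5 had 10 of 32, RPL4 8 of 15, RACK1 8 of 16 and RPL3 7 of 18. WT clusters were few in both lists, at 1.17 and 1.01 per F125A cluster. Translation factors were taken by EIF and EEF symbols, which also let in genes such as EEF2K that are not factors themselves. They had 185 of 1060 (17.5%, 16.5% for the length class), and 21 of 30 genes were above. Among them, EIF4G3 had 18 of 273, EIF3A 13 of 54, EIF3E 12 of 47 and EIF3B 9 of 24.

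Among genes of splicing regulators, the Rbfox family had the lowest share, and the value for LASR depended on MATR3. LASR subunit genes had 51 of 406 without a partner (12.6%, interval 9.50% to 16.2%, 17.2% for the length class), with 3 of 8 genes above 14.7%. HNRNPC led by number with 13 of 103, HNRNPH1 had 7 of 40 and MATR3, the gene of matrin 3, 7 of 102. However, 80 of the MATR3 clusters stood in a stretch of rows that was the same in both lists. Without that stretch, an alternative added after seeing the data, MATR3 had 7 of 22 (31.8%, interval 13.9% to 54.9%). LASR subunit genes then had 51 of 326 (15.6%, interval 11.9% to 20.05%, 17.5% for the length class), which turned them from below to above the level of all clusters. The Rbfox family had 14 of 233 (6.01%, interval 3.32% to 9.88%, 12.3% for the length class), all of them in RBFOX2, the gene knocked out in this line (14 of 221). Other splicing regulators had 227 of 1501 (15.1%, 16.7% for the length class) and 21 of 37 genes above, with 17 of 156 in PTBP2, 12 of 100 in QKI, 12 of 61 in SRSF11 and 11 of 82 in RBM39. Genes listed for exons under Rbfox control had 175 of 1176 (14.9%, interval 12.9% to 17.1%, 12.9% for the length class), and 14 of 22 genes were above. CAMTA1, a calmodulin-binding transcription activator, had 17 of 73, FMNL2, a formin, 16 of 89, and EPB41L2, a membrane skeleton protein, 17 of 159. C2H2 zinc finger genes, taken by ZNF symbols, had 576 of 4367 (13.2%, 16.6% for the length class), and 42 of 128 genes were above. ZNF711 is described above, and there were 17 of 93 in ZNF292, 11 of 108 in ZNF638 and 10 of 41 in ZNF207. Genes that hold an annotated snoRNA had 1867 of 13129 (14.2%, 13.9% for the length class) with 137 of 277 genes above, and FHIT, TTC28, TRIO and RERE led these by number.

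Small RNA genes were overlapped more often by unpartnered clusters than by partnered ones. The share was 0.228% (62 of 27229, interval 0.175% to 0.292%) against 0.083% (131 of 157746), and 0.0542% among WT clusters. For snoRNAs alone it was 0.103% against 0.0228%, and for microRNAs 0.125% against 0.059%. A cluster in EIF4A2 met both MIR1248 and SNORA81 and counts under both kinds. These are few clusters, and the annotation used for this count gave no strand. The 28 unpartnered clusters on snoRNAs fell on 25 snoRNA genes, of which WT clusters overlapped 2, a low number that the rule nearly fixes for such short genes. In reverse the other list also met few of the genes, since 33 WT clusters without an F125A partner fell on 32 snoRNA genes, of which F125A clusters overlapped 2. These 33 were 0.0164% of 200893 such WT clusters, below the 0.103% of unpartnered F125A clusters. Over the whole lists, 58 snoRNA genes met any F125A cluster, 66 met a WT cluster and 34 met both, so 24 were met by F125A alone and 32 by WT alone. With most nt overlapped were SNORA19 in EIF3A (103 nt), SNORD15A in RPS3 (73 nt) and SNORD19C in GNL3 (66 nt). These RNAs guide chemical modification of ribosomal or spliceosomal RNA.

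Of the 23 host genes of these snoRNAs, some are named above for their numbers or shares of unpartnered clusters. As a list, genes that hold a snoRNA had no raised share (14.2% against 14.7% of all clusters). NCL held clusters on SNORA75 and on SNORD20, EIF4G2 one on SNORD97, RPL3 one on SNORD83B, RACK1 one on SNORD96A and RPL5 2 on SNORD21. The SNORA75 cluster was 99 nt long and 445 nt from WT, while the SNORD20 cluster of 81 nt ended, on the transcribed strand, where a WT cluster began. A partnered F125A cluster of 52 nt began at the same place. The F125A list thus covered both adjoining pieces of that snoRNA, and the WT list only the second. A cluster of 78 nt in OR1F1 held a lysine tRNA gene, TRK-CTT4-1, whole.

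For microRNAs the strand was known, and 31 unpartnered clusters overlapped 30 of 1560 hairpins on the transcribed strand. WT clusters overlapped 3 of these 30 hairpins and none of the other 27, which the rule makes likely for so short a span. Over the whole lists, 79 hairpins met any F125A cluster, 72 met a WT cluster and 51 met both, so 28 were seen with F125A alone and 21 with WT alone. Both lists thus recovered hairpins at like numbers, although the WT list was the longer one. The MIR1307 cluster in ATP5MK, a subunit of ATP synthase, covered 148 of the 149 nt of its hairpin and lay 273 nt from WT. The MIR330 cluster of 100 nt covered 80 of 94 nt, and the nearest WT cluster was 12334 nt away. For MIR140 the cluster of 73 nt lay 12006 nt from WT and for MIR582 the cluster of 57 nt lay 17896 nt away, so no WT cluster was anywhere near. The MIR1180, MIR4707, MIR6798 and MIR4641 clusters shared 69, 67, 67 and 66 nt with their hairpins, and a cluster in HNRNPK shared 79 nt with MIR7-1 in the annotation without strand. MIR140, MIR326, MIR582, MIR590 and the snoRNAs other than SNORA19 and SNORD15A were picked after their values were seen.

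Coverage of the hairpins was partial in most cases. The clusters covered a median of 54% of a hairpin, 19 of the 31 held a mature sequence whole and 5 held 2. On the 5′ side 18 reached past the hairpin and on the 3′ side 15 did, so the protected RNA of these clusters was not limited to the hairpin. In MIR590, printed above, a cluster of 51 nt covered the 5′ arm and another of 80 nt the 3′ arm, and they lay 45 and 98 nt from WT.

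Sequence could be read only for clusters inside promoter windows, which are rich in G and C and stand for few introns. Whole unpartnered clusters inside a window numbered 159 (0.584% of the set), against 695 partnered F125A clusters, 999 WT clusters and 286 WT clusters without an F125A partner. The Rbfox pentamer GCATG was searched on the transcribed strand, and matches may overlap each other or other motifs. It was in 4 of the 159 (2.52%, interval 0.690% to 6.32%) and in 26 of the 695 partnered clusters (3.74%). Stretches of the same length in the same windows held it in 3.70% and 3.90%, so F125A clusters of both kinds held it about as often as their surroundings. Among WT clusters it was in 11.9%, against 6.03% of stretches, and among WT clusters without an F125A partner in 89 of 286 (31.1%, interval 25.8% to 36.8%), against 10.4%. Over all 34943 windows, 19.6% held it on the gene's strand and 29.5% on either strand.

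A run of 4 G (GGGG) was the commonest motif searched. It was in 120 of the 159 unpartnered clusters (75.5%, interval 68.0% to 81.9%) and in 51% of stretches of the same length, and 10.1% of the clusters held it on the opposite strand. Partnered clusters held it in 82.7% (57.4% of stretches), all WT clusters in 73.8% (50.3%) and WT clusters without an F125A partner in 51.05% (34.7%). In each of these sets the clusters held it more often than the stretches, so it was not particular to the unpartnered F125A clusters. Bases of the unpartnered clusters were 42.6% G and 20.0% C, while their windows were 36.5% G and 26.4% C. The GT repeat GTGTG was in 10.1% (8.98% of stretches), the T run TTTTT in 7.55% (6.40%) and ATCTT, a pentamer bound by matrin 3, in 1.26% (3.29%). Over all windows, GGGG stood in 75.1% on the gene's strand, GTGTG in 24.8%, TTTTT in 24.9% and ATCTT in 17.5%. A match describes the letters of a cluster and does not show which protein was bound.

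**Figure D5:**
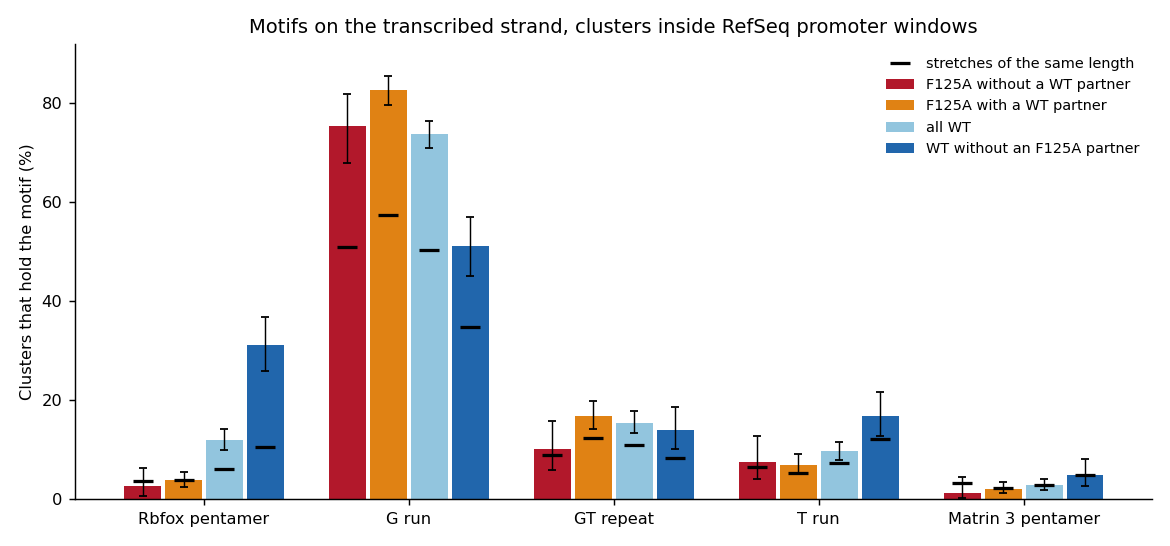
Share of clusters (%) that hold each of 5 motifs on the transcribed strand, for clusters wholly inside RefSeq promoter windows (159, 695, 999 and 286 clusters in the order of the legend), with exact 95% intervals. Black marks give the share of stretches of the same length in the same windows. The Rbfox pentamer was in 2.52% of unpartnered F125A clusters and 31.1% of WT clusters without an F125A partner. The run of G was in 75.5% and 51.05% of them, beside 51% and 34.7% of stretches, and in 73.8% of all WT clusters.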

How the data were processed

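The deposited data used here are 2 lists of clusters in introns of protein-coding genes, 1 for WT (3 libraries) and 1 for F125A (2 libraries). Per the file headers, each cluster has a start and an end on a chromosome, a strand, a region and a gene name, so the only measured values are positions in nt, and the deposited lists hold no counts, scores or p-values. Samples were grouped by the genotype in their labels. Per the labels' protocols, reverse transcription primers carried 4-nt molecular identifiers and inserts of 20 to 80 nt were selected. The tools cutadapt and STAR and the build hg38 are listed per the submitters' processing notes. Tool versions, the caller of clusters and its cutoff, any subtraction of the control and the way libraries were joined are not given in the sources used here. Columns with values of single samples that were left unused numbered 0. 

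Positions, 0-based in the lists, are printed 1-based. Repeated rows were dropped (4851 of 192878 F125A rows and 7029 of 373458 WT rows), as were 3052 F125A clusters that name several genes. WT clusters of several genes still counted as possible partners. Clusters of several genes, 3052 in each list, all stood in the stretch of rows alike in both lists. At least 1 nt shared on the same strand made a partner. Gene bounds, biotypes, microRNA and promoter sequences come from RefSeq's GRCh38.p14 tables, matched by symbol or by a synonym of 1 gene. No genome sequence was used, so the planned count of the pentamer over all clusters was left out and promoter windows were searched in its place. The annotation gave snoRNA genes no strand, so their overlap was taken on either strand, where same-strand overlap had been planned. The overlap code was tested on simulated data. No test was run, because each group is 1 list. Shares carry exact 95% intervals.

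The genes named are the 10 with most unpartnered clusters, the 10 highest shares among genes with at least 10 F125A clusters, the 10 lowest among those with at least 100, the 10 with most F125A clusters and no WT cluster, those of the 10 longest and 10 farthest clusters, up to 10 small RNA genes with most nt overlapped, and up to 4 genes in each list by number. Members, gene lists and rules were chosen with earlier results of these data known. Alternatives varied the overlap needed, strand, merging, repeats, lengths, windows, gene length and minimum counts. Python 3.11.15, numpy 2.4.6, pandas 2.3.3 and scipy 1.17.1 were used. Values of some single genes that the rule names are not reported here.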

Additional observations from a re-analysis of the deposited data

How the results depend on the processing

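The share of F125A clusters without a WT partner (14.7%) was 17.3% when a partner had to cover at least 50% of the cluster, 12.7% or 6.64% when WT within 50 or 500 nt also counted, and 13.8% for clusters of at most 100 nt. It stayed within its interval with either strand, with repeats kept, with clusters merged and without the stretch of 5433 rows alike in both lists (14.7%), the last an alternative added once the data had been seen. Clusters above 100 nt were 18.8% of the unpartnered set after merging. Against partnered clusters, the ratio near the gene end (1.98 within 5 kb) was 2.55 within 2000 nt, 1.63 within 10000 nt, and 1.32, 1.66 and 2.72 in the 3 classes of gene length. Near the gene start (1.30 within 1 kb) it was 1.42 within 500 nt, 1.22 without near misses and 1.06 and 1.18 in genes of 30 to 100 kb and over 100 kb, and it turned to 0.996 in genes under 30 kb. The cause was not tested. The 38 genes at 50% or more became 2 with at least 20 F125A clusters, a rule that tests fewer genes. Relative to all clusters, ribosomal protein genes (13.1 percentage points higher) were 8.62 points higher with WT within 50 nt as a partner and 7.07 points higher than their length class. Other splicing regulators moved from 0.403 to -1.95 and -1.58 points under the same changes, zinc finger genes to -3.41 and snoRNA-holding genes to 0.320 points against their length class. LASR subunit genes moved from -2.16 to 0.907 points without the stretch of rows alike in both lists, also added later, and no other list changed its direction there. The snoRNA ratio (4.51) was 2.93 within 100 nt. An opposite-strand WT cluster lay within 500 nt of 0.0331% of unpartnered and 0.00634% of partnered clusters. The spacing ratio (0.715) was 0.655 within 50 nt, 0.843 within 500 nt, and 0.657 and 0.687 in genes under 30 kb and over 100 kb, classes added after seeing the data. The pentamer with 50 nt added on both sides was not run. No paired analysis was possible because each list pools its libraries, and for the same reason no library could be left out. Depth is unknown, so a missing WT cluster may be low coverage. The number of libraries (3 and 2) and the length of the lists differ between the groups.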
